A study of Mus musculus with 8 samples.

Results

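The miR-30 family is a group of microRNAs (miRNAs) that share a 5p seed, and its 5 members in these data were mmu-mir-30a, mmu-mir-30b, mmu-mir-30c, mmu-mir-30d and mmu-mir-30e. Members were chosen by annotation: a read counted when its annotation named family members and no other RNA, with the copies of mmu-mir-30c joined under 1 name. This took 331 of 5724730 distinct sequences over all 8 samples, and the 5 members were 5 of 752 miRNAs that had reads annotated to a single miRNA name.

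Small RNA was sequenced from mature sperm of the caudae epididymides of adult male mice, 4 activated and 4 control. Activated mice were Agrp Cre/+ and controls were Agrp +/+. Mice of both genotypes carried the same AAV-hM3Dq-mCherry vector, injected bilaterally into the arcuate nucleus of the hypothalamus, and all received the ligand clozapine-N-oxide (CNO) without access to food, with sperm taken 4 hours later. The vector's excitatory receptor depends on Cre, which the Agrp allele expresses in AgRP neurons, so the Cre allele itself and neuronal activation cannot be told apart by the groups. The comparison asks whether sperm small RNAs differ after a few hours of activity in these hunger-promoting neurons. Depth, as reads of 15 to 45 nucleotides (nt) in each library, was 14903635, 17489698, 14757501 and 9409491 in activated 1 to 4. It was 12421068, 23123740, 9297271 and 14348060 in control 1 to 4. Levels are given as RPM, reads scaled to an equal library total in every sample, and these compare reads of miRNAs of nearly equal length.

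A miRNA is processed from a hairpin whose sides give a 5p and a 3p strand, and a strand loaded into an Argonaute protein pairs with target mRNAs mainly through its seed, the bases just inside its 5′ end. miRNAs with the same seed share many predicted targets, while the bases beyond it differ among family members. miR-30 miRNAs are expressed widely in mouse tissues, epithelia among them, and sperm are thought to receive part of their small RNA from vesicles shed by the epididymal epithelium.

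The 5p strands of the family are shown because they carry nearly all reads of the most abundant member. Sequences are from RefSeq, build GRCm38.p6, where 4 of the 6 hairpin genes of the family matched, and capitals mark the seed, bases 2 to 8. The seed GUAAACA occurred in 4 of 1679 mouse mature miRNAs of that table, namely the 5p strands of miR-30a, miR-30c and miR-30e, and miR-384-5p from outside the family.
mmu-miR-30a-5p: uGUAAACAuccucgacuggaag
mmu-miR-30c-5p: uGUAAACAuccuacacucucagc
mmu-miR-30e-5p: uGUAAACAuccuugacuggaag
mmu-miR-384-5p: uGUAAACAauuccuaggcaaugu

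With positions counted from 1 at the 5′ end of the miRNA, miR-30a-5p and miR-30e-5p differed by C13U alone over 22 bases. miR-30c-5p differed from miR-30a-5p at 5 of 22 positions, the first of them 13, so these members are told apart by the 3′ side of the molecule. The 3p strands are shown because miR-30a and miR-30e gave many reads from that side, and because only there can the copies of miR-30c be told apart. They fall into 2 seed groups, UUUCAGU for miR-30a and miR-30e and UGGGAGA for both copies of miR-30c.
mmu-miR-30a-3p: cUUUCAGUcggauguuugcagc
mmu-miR-30e-3p: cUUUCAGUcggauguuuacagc
mmu-miR-30c-1-3p: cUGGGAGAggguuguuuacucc
mmu-miR-30c-2-3p: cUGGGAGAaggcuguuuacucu

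miR-30a-3p and miR-30e-3p differed by G18A. miR-30c-1-3p and miR-30c-2-3p differed by G9A, U12C and C22U.

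The hairpins lie in 3 pairs in the annotation of GRCm38. Mir30a occupies bases 23272269 to 23272339 of chromosome 1, plus strand, outside any other annotated gene, and Mir30c-2 lies 19362 bases further at 23291701 to 23291784, in an exon of the lincRNA gene Gm27028. On chromosome 4, minus strand, Mir30c-1 at 120769534 to 120769622 and Mir30e at 120772606 to 120772697 lie 2984 bases apart in introns of Nfyc, which encodes a subunit of the transcription factor NF-Y. Mir30f is annotated over the same bases as Mir30e on the opposite strand. On chromosome 15, minus strand, Mir30b at 68337415 to 68337510 overlaps an exon of Gm26621, and Mir30d, 3698 bases away at 68341208 to 68341289, overlaps exons of Gm37296 and Gm20732.

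Libraries that stand apart come before the results. Control 4 had 35308 RPM of 5 listed smooth muscle miRNAs, against 393, 199, 138 and 292 RPM in activated 1 to 4 and 200.1, 362 and 244 RPM in control 1 to 3. The most abundant of these was mmu-mir-143, at 83.7 to 17171 RPM over the samples, and 4 of the 5 were detected. mmu-mir-133b, also on that list, had no read among 115750464, which allows up to 0.0259 RPM. The 7 listed epithelial miRNAs, all detected and led by mmu-mir-200c at 441 to 7487 RPM, summed to 3476, 1166, 1085 and 1196 RPM in activated 1 to 4 and to 1364, 1825, 2733 and 19420.2 RPM in control 1 to 4. So control 4 was far above the rest for both lists, and activated 1 was the next highest for the epithelial list. The 12 listed sperm and testis miRNAs, all detected and led by mmu-mir-34b, summed to 19933 to 37998 RPM in the 8 samples. A second division ran across the groups. Activated 2 and 3 and control 1 and 3 held 7.11 to 8.35% mitochondrial rRNA reads, whereas activated 1 and 4 and control 2 and 4 held 1.80 to 2.24%. These sets of 4 samples, called rich and poor here, were formed from the data and are not groups of the study. miRNA made up 37.8, 28.9, 23.0 and 37.4% of reads in activated 1 to 4 and 26, 33.2, 17.8 and 47.1% in control 1 to 4, so each rich sample lay below each poor one.

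The summed family had similar levels in both groups. It reached 8661, 7568, 7531 and 8715 RPM in activated 1 to 4 and 6609, 7626, 5773 and 8906 RPM in control 1 to 4. The means were 8119 ± 658 and 7228 ± 1351 RPM (SD, n = 4 each), a ratio of 1.12. Control 4 was the highest of all samples and control 3 the lowest, and the groups overlapped. Every rich sample lay below every poor one for the summed family in RPM. The same held for let-7/miR-98, miR-15/16 and the smooth muscle list, and not for the other lists and families summed. The sets were formed from the data and separate in miRNA share, so no result is drawn from this order for family or members. A share of all RNA species that separate the sets is not given. Without control 4 the ratio of activated to control was 1.22, and it was 1.22 within the rich samples and 1.05 within the poor ones. As a part of the miRNA reads, the family made up 2.29, 2.62, 3.28 and 2.33% in activated 1 to 4 and 2.54, 2.30, 3.24 and 1.89% in control 1 to 4. On that scale the order of the sets turned over, with each rich sample above each poor one and control 4 the lowest. There the ratio of activated to control was 1.05, and it turned to 0.976 without control 4. Whether the mitochondrial rRNA share, the miRNA share or the marker miRNAs had a part in these levels was not tested. In bulk RNA, fewer cells or vesicles of a source and less RNA in each cannot be told apart.

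miR-30c was the most abundant member, at 3468, 3675, 4038 and 3956 RPM in activated 1 to 4 and 3367, 3354, 3022 and 3134 RPM in control 1 to 4. All activated samples were above all controls on this scale, by a narrow gap between activated 1 and control 1. Among 587 RNA species (annotated RNAs summed by name, at least 50 reads in at least 4 samples), 13, or 2.21%, had groups that did not overlap in RPM. The miR-30c groups did overlap when scaled to miRNA reads and on the scale of the test, CPM, in which annotated reads are scaled by edgeR's TMM, where the background of non-overlap was 2.9%. There miR-30c had 3428, 4776, 5719 and 4417 CPM in activated 1 to 4 and 3788, 3752, 3462 and 4056 CPM in control 1 to 4. It ranked 14 of 752 miRNAs by mean RPM.

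miR-30d and miR-30b, neighbours on chromosome 15, followed at ranks 27 and 29. miR-30d had 1737, 1509, 1577 and 1848 RPM in activated 1 to 4 and 1346, 1509, 1217 and 2414 RPM in control 1 to 4. Control 4 was the highest by a wide margin and control 3 the lowest, so the control group spanned the activated one. miR-30b had 1916, 1562, 1329 and 1826 RPM in activated 1 to 4 and 1283, 1669, 1002 and 1715 RPM in control 1 to 4. Its groups overlapped. The 4 rich samples were the 4 lowest in RPM, but the sets overlapped when miR-30b was scaled to miRNA reads. The levels of miR-30b and miR-30d did not differ beyond their spread over samples.

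miR-30a and miR-30e, whose 5p strands differ by 1 base, were the least abundant, at ranks 57 and 62. miR-30a had 773, 430.0, 302 and 540.2 RPM in activated 1 to 4 and 327, 551, 289 and 1107 RPM in control 1 to 4. Control 4 was again highest, followed by activated 1. The rich samples were the 4 lowest in RPM, but the sets overlapped when miR-30a was scaled to miRNA reads. miR-30e had 762, 389, 285 and 543 RPM in activated 1 to 4 and 284, 539, 241 and 533 RPM in control 1 to 4. Unlike miR-30a it was not high in control 4, which lay close to activated 4 and control 2. The means of these members over all samples, 540.0 RPM and 447 RPM, did not differ beyond their spread. Sample by sample, miR-30a was above miR-30e except in activated 4, an order that was not tested. mmu-mir-384, the miRNA outside the family with the same 5p seed, had 0 to 18 reads a sample. Its 0 reads in control 1 allow up to 0.242 RPM.

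**Figure D1:**
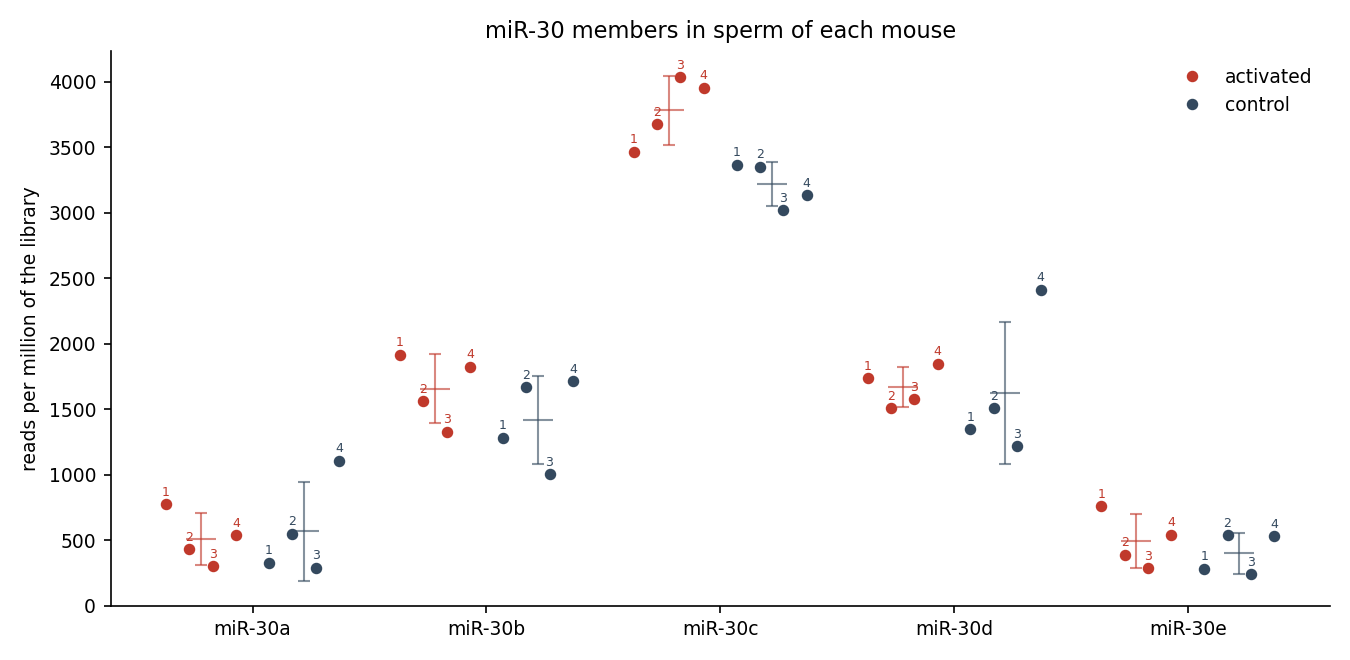
Level of each miR-30 member in RPM (y axis) in the 4 activated and 4 control samples, with replicate numbers at the points and the group mean and SD as bars. miR-30c lies between 3022 and 4038 RPM, and control 4 is the highest sample for miR-30a (1107 RPM) and miR-30d (2414 RPM) but not for miR-30e (533 RPM).

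Members varied to different degrees. Over the 8 samples the SD of log2 CPM was 0.25 for miR-30c, 0.31 for miR-30b, 0.37 for miR-30d, 0.53 for miR-30e and 0.67 for miR-30a, against a median of 0.59 over 273 miRNA species. On this scale miR-30c was among the steadiest miRNAs of these libraries, at percentile 2.56, and the 2 least abundant members varied about as much as the typical miRNA. Scaled to miRNA reads, miR-30c varied most of the 5, its highest sample being 2.64 times its lowest, against 1.51 to 1.87 times for the others. In RPM the mean of the rich samples over that of the poor ones was 1.01 for miR-30c, 0.752 for miR-30d, 0.726 for miR-30b, 0.505 for miR-30e and 0.454 for miR-30a. Scaled to miRNA reads the same ratios were 1.65, 1.25, 1.17, 0.809 and 0.758. So the order of the members held, while miR-30c went from nearest to 1 to furthest from it. The sets were formed from the data, so these ratios only describe the samples.

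The different spread of the members shows in the composition of the family. miR-30c made up 40.0, 48.6, 53.6 and 45.4% of family reads in activated 1 to 4 and 51.0, 44.0, 52.4 and 35.2% in control 1 to 4. Its part was larger in every rich sample than in any poor one, and smallest in control 4. No result is drawn from this order, since a share of all RNA species that separate the sets is not given. miR-30a went the other way, with 8.93, 5.68, 4.01 and 6.20% in activated 1 to 4 and 4.95, 7.22, 5.01 and 12.4% in control 1 to 4. miR-30d stayed within 19.8 to 21.2% in 7 samples and reached 27.1% in control 4. Reads whose annotation named several members were at most 0.0589% of family reads. Each of these percentages had a 95% Wilson interval less than 0.846 points wide, which covers counting error only, since PCR copies are not independent molecules.

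**Figure D2:**
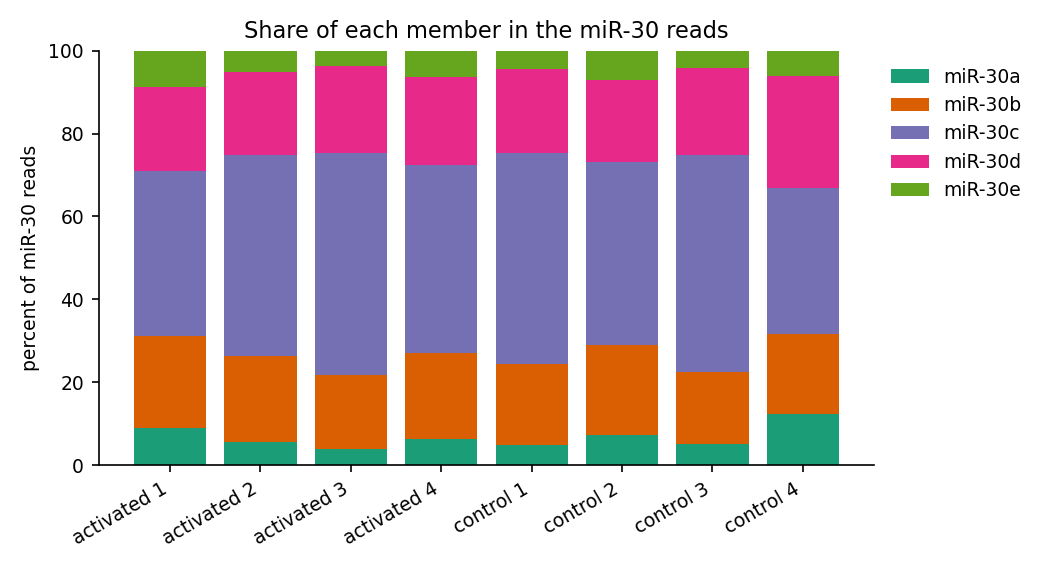
Percent of miR-30 reads (y axis) given by each member in each of the 8 samples (x axis). miR-30c gives 48.6 to 53.6% in activated 2 and 3 and control 1 and 3, and 35.2 to 45.4% in the other samples. These sets were formed from the data, and no result is drawn from the split.

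In the test of activated against control, no member was called. The edgeR quasi-likelihood test on all 587 RNA species called 0 of 5 members at a Benjamini-Hochberg adjusted p under 0.05 and an absolute log2 fold change above 1, and DESeq2 with apeglm called 0. None of the 5 had an unadjusted p under 0.05 in edgeR. Over all species edgeR called 0%, with 10 higher and 38 lower at unadjusted p under 0.05, and DESeq2 called 3, all lower, or 0.511%, which were mmu-mir-451a, reads shared by mmu-mir-486a and mmu-mir-486b, and the 5′ end of mature tRNA-Glu-TTC, named here after their values were seen. Of the members, 4 had a positive and 1 a negative log2 fold change, with a median of 0.23 against −0.07 over all species, of which 270 were positive and 317 negative.

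miR-30c had a log2 fold change of 0.28 ± 0.21 (SE, n = 4 each; edgeR adjusted p = 0.644), with 3 of 4 activated samples above the control median in CPM. miR-30b had 0.23 ± 0.24 (edgeR adjusted p = 0.671), miR-30e 0.27 ± 0.35 (edgeR adjusted p = 0.701) and miR-30d 0.05 ± 0.29 (edgeR adjusted p = 0.926). For miR-30a the value was −0.22 ± 0.47 (edgeR adjusted p = 0.793), and the sign turned without control 4. Without that library the values were 0.43 for miR-30a, 0.40 for miR-30b, 0.33 for miR-30c, 0.38 for miR-30d and 0.51 for miR-30e. The 95% interval for miR-30c ran from −0.20 to 0.77 and that for miR-30a from −1.28 to 0.83, so a log2 fold change of 1 lay above both intervals and −1 lay inside the second.

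**Figure D3:**
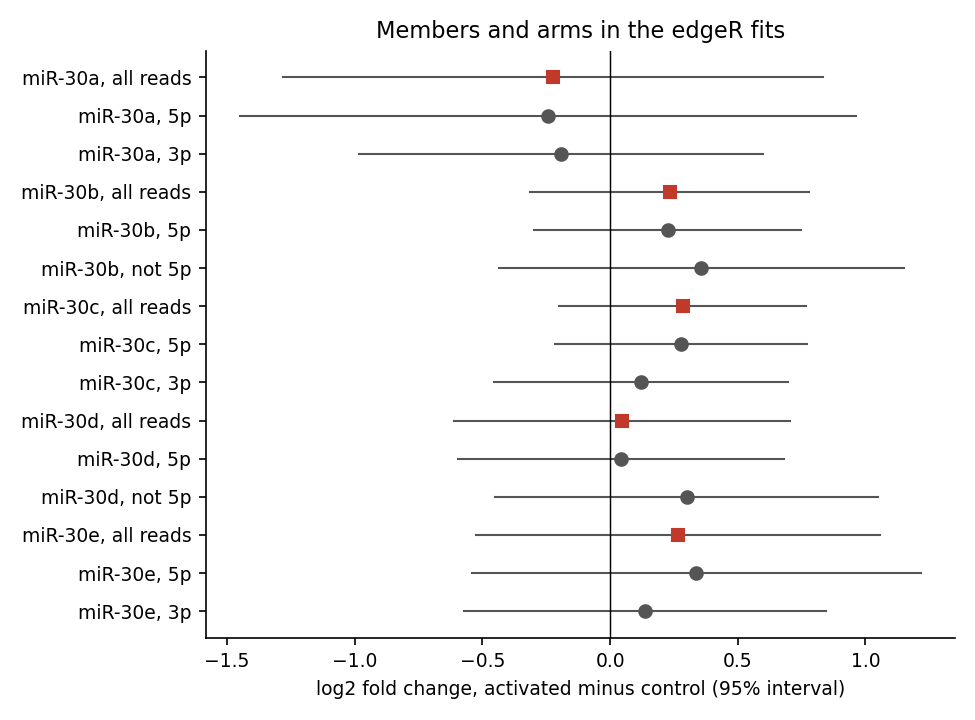
Log2 fold change, activated minus control, from edgeR (x axis, point with 95% interval) for each miR-30 member (squares) and for its strands (circles). All intervals cross 0; the widest is that of the miR-30a 5p strand, from −1.45 to 0.96.

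Strand use separated the members into 2 kinds. miR-30b, miR-30c and miR-30d gave 98.0 to 99.7% of their reads from the 5p strand in every sample. miR-30a gave 71.1, 54.8, 58.6 and 58.9% from the 5p strand in activated 1 to 4 and 49.0, 62.0, 56.8 and 67.9% in control 1 to 4. miR-30e gave 70.4, 55.3, 60.8 and 60.8% in activated 1 to 4 and 47.0, 64.9, 63.9 and 58.4% in control 1 to 4. Control 1 was the lowest and activated 1 the highest for both, and the groups overlapped. The widest 95% Wilson interval among these values was 3.98 points. In RPM the miR-30a 5p strand ran from 160.3 to 752 and its other reads from 124.8 to 355, so the 5p strand varied more.

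Tested by strand over 643 features, 0 of 10 member strands were called by edgeR or DESeq2 and none had an unadjusted edgeR p under 0.05. All features gave 0% by edgeR, with 10 higher and 45 lower at unadjusted p under 0.05, and 3, or 0.467%, by DESeq2. No member strand had groups that did not overlap in CPM, against 2.64% of all features. The 5p strands had log2 fold changes of 0.34 ± 0.39 (SE) for miR-30e, 0.28 ± 0.22 for miR-30c, 0.23 ± 0.23 for miR-30b, 0.04 ± 0.28 for miR-30d and −0.24 ± 0.53 for miR-30a. The 3p strand of miR-30c had 0.12 ± 0.25, that of miR-30e 0.14 ± 0.31 and that of miR-30a −0.19 ± 0.35. Reads without the 5p seed had 0.36 ± 0.35 for miR-30b and 0.30 ± 0.33 for miR-30d. Of the 10 values only those of the miR-30c 5p strand and of the other miR-30b reads exceeded their SE.

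Reads unique to each copy of miR-30c were few. The Mir30c-2 hairpin had a mean of 55.2 RPM of its own reads and Mir30c-1 had 10.03 RPM, while the 5p strand that both give cannot be divided between them.

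In miR-30a, miR-30c and miR-30e, the members with a reference sequence, most 5p reads were not the reference mature molecule. Exactly the reference sequence made up a mean of 28% of miR-30c-5p reads, 5.28% of miR-30a-5p reads and 1.19% of miR-30e-5p reads. The most frequent reads are printed here because they end beyond the reference 3′ end, as DNA letters with the seed in capitals. Each is the most abundant sequence of its member.
mmu-mir-30c: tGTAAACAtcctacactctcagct
mmu-mir-30a: tGTAAACAtcctcgactggaagct
mmu-mir-30e: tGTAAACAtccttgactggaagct

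The miR-30c read of 24 nt made up 60.4% of that member's reads, with 2099, 2300.2, 2582 and 2358 RPM in activated 1 to 4 and 2110.4, 2031, 1945 and 1511 RPM in control 1 to 4. Control 4 was the lowest and activated 1 lay just under control 1, so the groups overlapped in RPM. The miR-30a read of 24 nt made up 24.7% of its member and the miR-30e read of 24 nt 43.6%. Next in miR-30c came the reference molecule of 23 nt, with 27.5% of reads.

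Length profiles, taken from annotated reads that hold the 5p seed, differed in shape among members and were similar across the samples. Reads with added 3′ bases, described below and not annotated to a member, are left out. Such reads were 26.3% of miR-30d and 21.9% of miR-30a 5p reads of at least 20 nt, so the profiles hold for annotated reads only. Of miR-30b 5p reads 90.0% were 22 nt, of miR-30c 5p reads 61.6% were 24 nt and 28.5% were 23 nt, and of miR-30e 5p reads 70.9% were 24 nt, as means over the 8 samples. miR-30a had a broad profile, with 39.5% at 24 nt, 17% at 20 nt and 14.2% at 21 nt. miR-30d was the shortest, with 33.3% at 21 nt, 27.9% at 20 nt and only 14.6% at 24 nt. So miR-30b and miR-30d, from neighbouring hairpins, had the narrowest and among the broadest profiles. For miR-30c, control 4 stood apart with 49.5% at 24 nt and 36.7% at 23 nt, against 61.1 to 65.6% at 24 nt in the other samples.

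**Figure D4:**
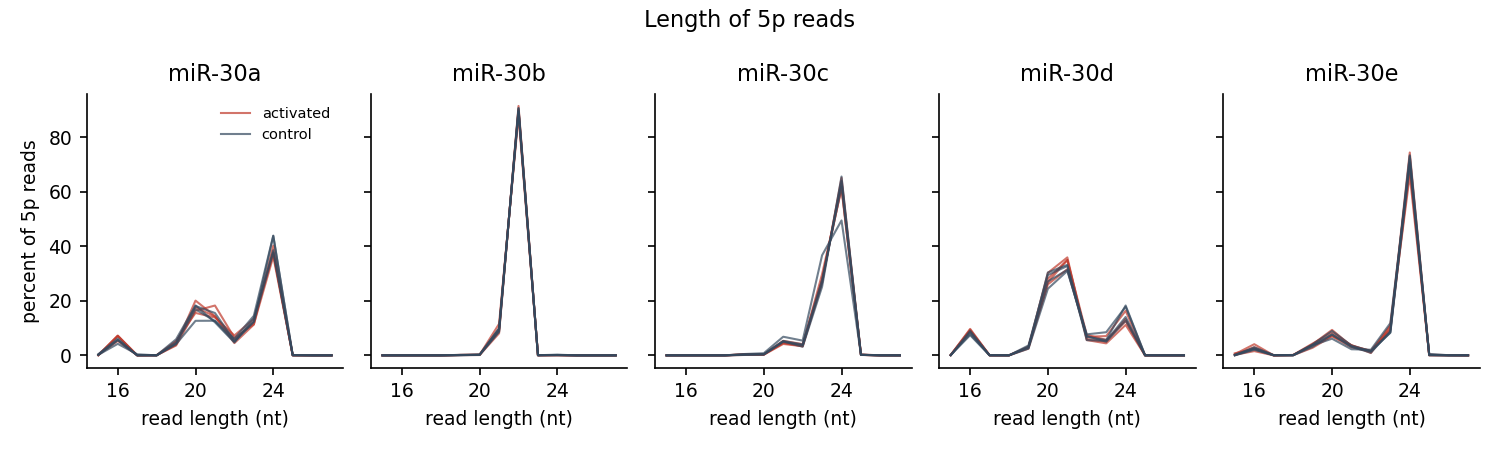
Percent of annotated 5p reads (y axis) at each read length in nt (x axis) for each miR-30 member. Each sample is 1 line, activated in red and control in dark grey-blue. miR-30b peaks at 22 nt (90.0%), miR-30c and miR-30e at 24 nt (61.6 and 70.9%), and the control line apart from the others for miR-30c is control 4 (49.5% at 24 nt).

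The 5′ end sets the seed, and it was measured in the members with a reference sequence, over all their 5p reads. Reads starting at the reference base made up a mean of 98.7% for miR-30c, 93.2% for miR-30a and 92.3% for miR-30e. Most of the others in miR-30a and miR-30e started 1 base later, 6.11 and 6.94%, which moves the seed by 1 base. Starts 2 or more bases later made up 0.496, 0.599 and 0.726% in miR-30c, miR-30a and miR-30e. For miR-30b and miR-30d no start is given, since their 5p reads were recognised by the seed.

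Very short reads were more frequent in miR-30d than in miR-30a and miR-30e. Reads of 15 to 17 nt made up 9.96, 9.29, 9.17 and 9.63% of miR-30d reads in activated 1 to 4 and 9.10, 8.72, 7.73 and 8.07% in control 1 to 4. Activated samples were all above the controls, but the nearest pair could not be told apart at this depth: activated 3 had a 95% Wilson interval of 8.81 to 9.55% and control 1 of 8.67 to 9.54%. Among 19 miRNA species with enough such reads, 1, or 5.26%, had groups that did not overlap, and that 1 was miR-30d. The same percentage was 2.75 to 5.28 in miR-30a and 1.06 to 2.73 in miR-30e. It is not given for miR-30b and miR-30c, because their 5p reads begin with the same bases and such short ones carry both names. All reads that name several members were together only the small percentage of family reads given above. In miR-30d most reads of 15 to 17 nt were 16 nt, a mean of 8.73% of its 5p reads. The percentages of 15 to 17 nt are of all reads of a member, of which fewer are 5p in miR-30a and miR-30e. As a part of 5p reads, those of 16 nt were at 7.41 to 9.72% in miR-30d. They were at 4.23 to 7.28% in miR-30a and 1.56 to 4.10% in miR-30e.

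Of the distinct member sequences, 50 passed the filter and took part in the test of 12077 single sequences. Neither tool called any of the 50, and none had an unadjusted edgeR p under 0.05. Over all sequences edgeR called 52, all higher, or 0.431%, and DESeq2 called 195 higher and 45 lower, or 1.99%. At unadjusted p under 0.05 in edgeR 418 were higher and 454 lower. Among the member sequences 29 had a positive and 21 a negative log2 fold change, against 6801 and 5276 over all sequences. The median was 0.07 against 0.08 over all. By member, 11 of 11 miR-30e and 4 of 4 miR-30b sequences were positive and 13 of 15 miR-30a sequences negative. For miR-30c 9 of 13 were positive, and for miR-30d 3 of 7. The values for miR-30a moved with control 4. In RPM its 3 most abundant sequences had ratios of activated to control of 0.814, 1.03 and 1.04. Without that library the ratios were 1.38, 1.21 and 1.41. Sequences of 1 member share their source and are not independent. The groups did not overlap in CPM for 1 of the 50, the miR-30c read of 24 nt, at 0.30 ± 0.22 (SE; edgeR adjusted p = 0.953), against 4.37% of all sequences, and in RPM its groups overlapped.

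A further set of reads belongs to the family by sequence but not by annotation. They were looked for after the data had been seen, and the choice is not independent of them. A tailed read is defined here as one that does not match the genome and follows a member's sequence from the mature 5′ end. It follows that sequence for at least 20 bases and then carries 1 to 3 other bases. For miR-30b and miR-30d, which had no RefSeq sequence, the bases followed were not those of a RefSeq hairpin. This limits their comparison with other strands. There were 119150 such 5p reads, of which 118373, or 99.3%, were annotated as piRNA (small RNAs of germ cells that silence transposons) and the rest had no annotation. The study's methods allow no mismatches in matching, and how reads that do not match the genome came by a piRNA annotation was not tested. They equalled 15.3, 12.9, 14.3 and 13.1% of the family's annotated reads in activated 1 to 4 and 12.9, 12.6, 11.4 and 13.1% in control 1 to 4. The groups overlapped, with activated 1 highest and control 3 lowest. A few such reads are printed to show where the added base stands, in capitals, as DNA letters.
mmu-mir-30a: tgtaaacatcctcgactggaaA
mmu-mir-30e: tgtaaacatccttgactggaaA
mmu-mir-30c: tgtaaacatcctacactctcagctT

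The miR-30a example had 5026 reads and 10.9 to 115 RPM over the samples, the miR-30e example 612 reads and the miR-30c example 11629 reads. A single added base cannot be told apart from a different last base of the same length.

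Members differed widely in these tails. Over all samples 26.3% of miR-30d 5p reads of at least 20 nt and 21.9% of those of miR-30a had a tail, against 8.60% for miR-30e, 8.17% for miR-30c and 6.60% for miR-30b. A single A accounted for most of this: 19% in miR-30d and 14.9% in miR-30a, but 3.59% in miR-30e, 1.65% in miR-30c and 0.702% in miR-30b. So miR-30a and miR-30e, which have the same last 9 bases in the reference 5p strand, differed several-fold in added A. A single U was at 2.22 to 4.84% in the 5 members. As the level of other single bases, C was at most 0.125% and G at most 0.0449%. Among 165 miRNA 5p and 3p strands measured against RefSeq hairpins, the median was 19.6% for any tail, 4.41% for a single A and 8.27% for a single U. The 165 do not include miR-30b and miR-30d. Only 8 of those strands had more added A than miR-30d and 13 more than miR-30a, while 104 to 129 had more added U than each of the 5 members. An added base that equals the next base of the hairpin is not counted as a tail. In miR-30a, miR-30c and miR-30e this holds for a U added to the read that lacks the last base of the most abundant one.

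By sample, a single A was at 20.5, 16.5, 15.5 and 14.4% in miR-30a of activated 1 to 4 and 15.2, 15.2, 10.6 and 9.77% in control 1 to 4. In miR-30d it was at 23.1, 18.9, 19.7 and 19% in activated 1 to 4 and 19.4, 18.9, 14.8 and 16.5% in control 1 to 4. For both, activated 1 was highest and control 3 and 4 were lowest, and the groups overlapped. Any tail in miR-30d was at 31.1, 26.5, 28.1 and 26.7% in activated 1 to 4 and 26.4, 26.3, 21.2 and 22.3% in control 1 to 4. There the activated samples were all above the controls, by less than counting error in the nearest pair, since the 95% Wilson interval was 26 to 27% in activated 2 and 25.8 to 27% in control 1. Of the 165 strands, which do not include miR-30d because its RefSeq sequence was missing, 3, or 1.82%, had groups that did not overlap in this percentage: the 5p strands of mmu-mir-298, mmu-mir-701 and mmu-mir-871, named after their values were seen. Tails of 2 or 3 A in miR-30d were at 3.19, 2.70, 3.14 and 2.83% in activated 1 to 4 and 2.08, 2.43, 1.61 and 1.71% in control 1 to 4, a ratio of 1.52 with groups that did not overlap. The nearest samples were activated 2, with a 95% Wilson interval of 2.53 to 2.89%, and control 2, with 2.28 to 2.58%, and these intervals overlapped. Over all 5 members these tails were at 0.903 to 1.35% in activated and 0.523 to 0.889% in control samples, while the groups overlapped in each of the other 4 members. Of 57 strands with enough such reads, which again do not include miR-30d, 0, or 0%, had groups that did not overlap. Some of these strands had ratios above that of miR-30d. For the 5p strands the ratio was 2.06 in mmu-mir-125b, 1.72 in mmu-mir-10b, 1.67 in mmu-mir-100 and 1.66 in mmu-mir-10a. It was 1.64 in mmu-mir-9, 1.61 in mmu-mir-30a and 1.54 in mmu-mir-465b. Other strands had ratios below 1, the lowest being 0.520 in the 3p strand of mmu-mir-92a. No test across features was made on tails.

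**Figure D5:**
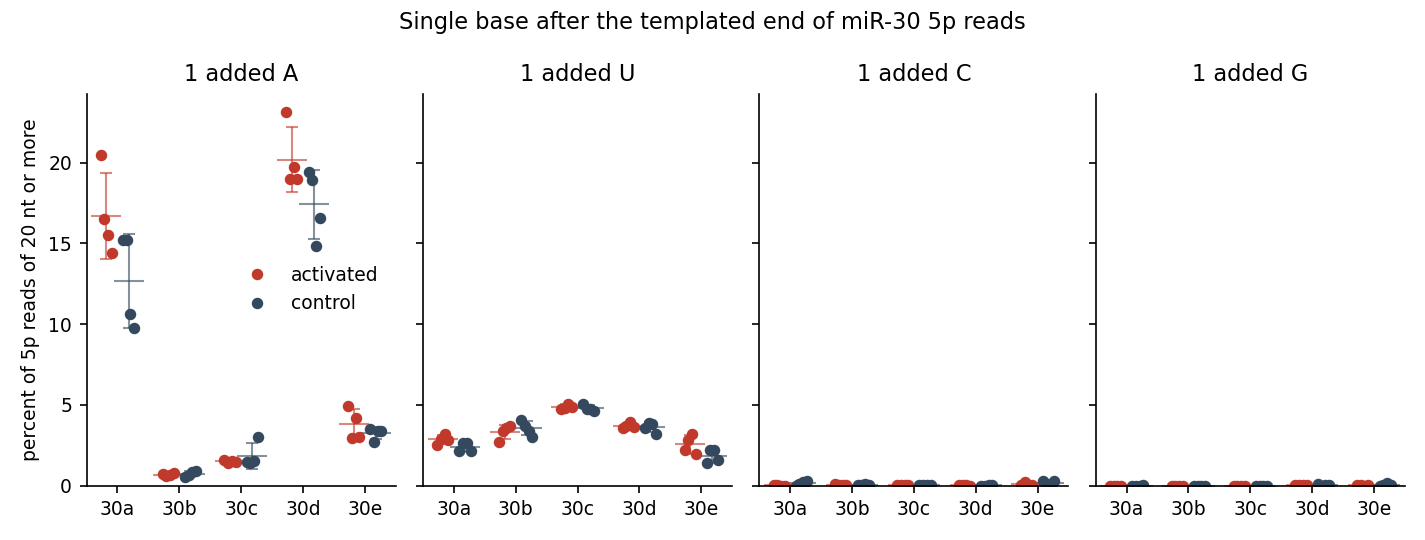
Percent of 5p reads of 20 nt or more (y axis) that carry 1 added A, U, C or G after the templated part, for each miR-30 member, with the activated and control samples as points and the group mean and SD as bars. Added A is frequent in miR-30a and miR-30d (14.9 and 19% over all samples) and rare in miR-30b and miR-30c, whereas added U is at 2.22 to 4.84% in all 5 members.

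miRNAs that followed the summed family most closely over the 8 samples, of 268 compared, were mmu-mir-409, mmu-mir-532, reads shared by mmu-mir-465a and mmu-mir-465b, mmu-mir-466f and mmu-mir-470. The SD of their log2 CPM difference from the family was 0.12, 0.15, 0.17, 0.18 and 0.19. Their mean levels ran from 10.8 RPM for the shared mir-465 reads to 1430.1 RPM for mmu-mir-470. None was called by edgeR; their log2 fold changes were 0.13 to 0.41, with edgeR adjusted p of 0.559 to 0.754. The family itself had an SD of log2 CPM of 0.27.

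Beside 6 other families, miR-30 had a mean of 7674 RPM. The means were 108435 RPM for miR-15/16 at the top and 3924 RPM (1783 RPM without control 4) for miR-200 at the bottom, against miR-30. The mean of miR-10/miR-99/miR-100/miR-125 was above it at 10655 RPM, but 4184 RPM without control 4, against 7498 RPM for miR-30 without that library, and this family was below miR-30 in 6 of 8 samples. In RPM its highest sample was 1.54 times its lowest, against 1.91 times for the listed sperm and testis miRNAs, 1.69 times for miR-34/miR-449, 1.87 times for miR-17-92, 2.95 times for miR-15/16, 4.19 times for let-7/miR-98, 18.1 times for miR-200 and 19.8 times for miR-10/miR-99/miR-100/miR-125. Without control 4 the last 3 were 2.19, 3.23 and 2.41 times, and miR-30 was at 1.51 times. let-7/miR-98 summed to 20905, 11989, 10307 and 16021 RPM in activated 1 to 4 and 10170.0, 14434, 9530.2 and 39892 RPM in control 1 to 4, with let-7h and let-7k at 0. Of its 9 tested members 8 had a negative log2 fold change, and 7 of 7 did in miR-10/miR-99/miR-100/miR-125, against 1 of 5 in miR-30. In miR-15/16 and miR-17-92 all tested members, 5 and 9, were positive, as were 5 of 6 in miR-34/miR-449, and in miR-200 all 5 were negative. Over all species 270 were positive and 317 negative. edgeR called 0 members of these families and DESeq2 called 0, with 3 of let-7/miR-98, 6 of miR-10/miR-99/miR-100/miR-125, 3 of miR-200 and 1 of miR-17-92 at unadjusted edgeR p under 0.05, as were 48 of all 587 species, or 8.18%. Without control 4, the ratio of activated to control in summed RPM was 1.30 for let-7/miR-98, 0.779 for miR-10/miR-99/miR-100/miR-125, 0.872 for miR-200 and 1.22 for miR-30, against 0.800, 0.212, 0.272 and 1.12 with it.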

How the data were processed

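Per the file headers and the study's methods, the authors trimmed and filtered reads with SPORTS1.1, kept those of 15 to 45 nt and duplicates, matched them with Bowtie to mm10 and to small RNA databases, and deposited for each sample a count of reads for every distinct sequence. The deposited summaries hold the expected count of each RNA, a read being divided equally among the RNAs it matches. Summed from the sequence counts, the family's reads equalled the summary's entries in all 8 samples to within rounding.

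From the counts, reads were summed by annotated RNA, by miRNA strand (overlap of at least 10 nt with a RefSeq mature sequence) and by sequence, and RPM was computed from the library total. For miR-30b and miR-30d a 5p read is one that holds the 5p seed. Activated and control were compared in R 4.3.3 with edgeR 4.0.16 (TMM, quasi-likelihood F test, at least 50 reads in at least 4 samples), with DESeq2 1.42.0 and apeglm 1.24.0 as the other tool. A feature was called at a Benjamini-Hochberg adjusted p under 0.05 and an absolute log2 fold change above 1. The SE was taken from the log2 fold change and the F statistic. Tables and figures were made with Python 3.11.15, pandas 2.3.3, scipy 1.17.1 and matplotlib 3.10.9. The fits were tested on simulated data. Every difference put in had an absolute log2 fold change well above the 1 used for calling, and none near that threshold was simulated. The fits by RNA and by strand recovered most differences put in, and their power for smaller differences was not tested. The fit of single sequences missed nearly all of the smaller ones put in, so a count of 0 among sequences has little power behind it.

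Named were all members and their strands, mir-384, the 5 miRNAs with the lowest SD of log2 CPM difference from the family (prior count 2), the 3 most abundant sequences of each member and the most abundant gene of each marker list. The members and lists were chosen with earlier results of these data known, and the members of the comparison families other than let-7 were written out, and tailed reads analysed, once the data had been seen. Alternatives were other scalings, denominators, filters and read lengths, DESeq2, the replicate number as a block, the library set as a covariate, and each sample left out. Reads whose annotation named members only were used, and 0 reads named a member beside another RNA. A value far from its group was looked for with Dixon's rule for 4 samples (0.829).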

Additional observations from a re-analysis of the deposited data

Results flagged for a closer look

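Dixon's rule was applied to 232 groups of 4 samples, and 12, or 5.17%, had a sample far from the others, all given here. Chance flags about 1 in 20 groups by this rule. The values named are not independent, since the epithelial list holds the miR-200 family and 1 library gives many of them.

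Control 4 was the highest control for miR-30d on the scale of the test, at 3124 CPM, and for added A in miR-30c, at 3.03% of 5p reads. It was also the highest control for the epithelial list at 19420.2 RPM, the smooth muscle list at 35308 RPM, let-7/miR-98 at 39892 RPM, miR-10/miR-99/miR-100/miR-125 at 55947 RPM and miR-200 at 18910 RPM. Activated 1 was the highest activated sample for the epithelial list at 3476 RPM, for miR-200 at 3380.1 RPM and for the erythroid list at 298 RPM, and for added A over all miR-30 members at 8.20%. Control 2 was the lowest control for added A in miR-30e, at 2.68%. What sets these samples apart was not tested.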

How the results depend on the processing

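No member, strand or member sequence was called under any of the settings run. Of 90 alternative values for the 5 members 83 kept their sign, as did 141 of 150 for the 10 strands and 194 of 225 for the 15 named sequences, and the family ratio lay between 1.05 and 1.22 with 1 choice changed at a time. With miRNA reads as denominator it was 1.02 within the rich samples and turned to 0.976 without control 4. The cause was not tested for any change given here. Below, sequences are numbered by abundance within their member.

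DESeq2 called 3 RNA species lower, 3 strand features lower, and 195 single sequences higher and 45 lower. With at least 1 read in at least 1 sample, 1 strand feature was called lower. The fit of single sequences scaled the file total, not annotated reads alone, by TMM. Single sequences called higher numbered 27 with the unscaled file total as library size and 256 with at least 10 reads in at least 4 samples. With at least 1 read in at least 4 samples 1744 were called higher and 1059 lower, and with the library set as covariate 124 and 13. Leaving out 1 sample gave 0 to 54 called higher.

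With the replicate number as a block, 0 single sequences were called, and log2 fold changes turned positive for miR-30a (0.016), its 5p strand (0.042) and its sequences 2 (0.063) and 3 (0.073). The numbers did not pair the samples: deviations from the group means correlated at −0.51, 0.043, 0.53 and −0.11 between activated and control samples numbered 1 to 4. Among miRNA species alone miR-30d was at −0.048. Sequences 2 and 3 of miR-30a were at 0.036 and 0.060 with the file total and at 0.063 and 0.092 with the library set. Sequence 2 of miR-30d was at −0.0060 with median-ratio size factors, −0.00079 with DESeq2, −0.038 with at least 10 reads and −0.057 with at least 1 read, where sequence 2 of miR-30e was at −0.0030.

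Leaving out 1 sample moved miR-30a between −0.43 and 0.43, its 5p strand between −0.50 and 0.50 and its 3p strand between −0.39 and 0.21, each highest without control 4. miR-30d lay between −0.058 without control 3 and 0.38 without control 4, its 5p strand between −0.081 and 0.34, and the 3p strands of miR-30c between −0.041 and 0.25 and of miR-30e between −0.079 and 0.36. Sequences 1, 2 and 3 of miR-30a ran from −0.80 to 0.57, −0.23 to 0.35 and −0.38 to 0.60, and those of miR-30d from −0.065 to 0.46, −0.13 to 0.31 and −0.53 to 0.19. Sequences 1, 2 and 3 of miR-30e ran from −0.056 to 0.60, −0.15 to 0.38 and −0.062 to 0.50, and sequence 3 of miR-30c from −0.14 to 0.15.

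Groups of 4 and the spread between libraries limit all of these values, and the 95% intervals of the members reach a log2 fold change of 1 or −1 for miR-30a and miR-30e. Depth limits the copies of miR-30c and miR-384, which had few reads.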

Other observations

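Erythroid miRNAs were higher in most controls than in most activated samples. The 4 listed, all detected and led by mmu-mir-451a, summed to 298, 83.5, 113 and 84.1 RPM in activated 1 to 4 and to 235, 532, 976 and 659 RPM in control 1 to 4. Activated 1 was above control 1, so the groups overlapped. The 4 listed leukocyte miRNAs, all detected and led by mmu-mir-142a, summed to 862, 398, 655 and 581 RPM in activated 1 to 4 and to 343, 454, 295 and 553 RPM in control 1 to 4. Both lists overlapped between the groups, and whether either list followed the miR-30 members over the samples was not tested.

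Annotation as piRNA of reads that extend a miRNA was general. Over the miRNA strands searched there were 4711515 tailed reads, of which 98.3% were annotated as piRNA.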
